A study of Brassica napus and Orychophragmus violaceus with 4 samples.

Results

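Petals with red or purple anthocyanin pigment were set against petals without such pigment in 2 species at once. The pigmented petals were those of M4, a disomic addition line that holds all chromosomes of *B. napus* and 1 pair from *O. violaceus* and has red pigment on yellow petals, and those of OvP, wild-type *O. violaceus* with purple petals. The petals without anthocyanin were those of H3, the yellow-flowered *B. napus* cv. Huashuang 3 from which M4 derives, and those of OvW, a natural white-petalled mutant of *O. violaceus*. All plants were raised in a greenhouse, petals were taken from partly open flowers, and polyadenylated RNA was sequenced. M4 with H3 and OvP with OvW form 2 pairs, and the pairs share no library. M4 differs from H3 by whole chromosomes, and transcripts of the added *O. violaceus* pair cannot be told apart from those of *B. napus* in these counts. According to the study, OvW also lacks pigment in leaves and stems and grows less vigorously than OvP, so this pair differs in more than petal colour. The number of plants per library was not stated in the paper or labels.

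The members are the genes with 20 or more reads in each pair whose scaled level differed at least 3-fold between pigmented and unpigmented petals in both pairs. Of 37441 genes in the read table, 13554 had enough reads. Among the 23887 others, 9811 fell short only in *O. violaceus*, 1275 only in *B. napus* and 12801 in both. A fold is the ratio of reads in the pigmented library to reads in its partner after TMM scaling, which sets the bulk of genes to no difference. Folds below 1 are lower in pigmented petals. Where a library had 0 reads, a floor of 3 reads took its place. The fold then depends on that floor and is not a bound, since its interval can reach closer to no difference. Intervals are 95% exact binomial (Clopper-Pearson) intervals of the reads, and they cover counting error only. Each material had 1 library, so no fold within a pair has a replicate check, and a difference by pigment cannot be told apart from one between the plants sampled.

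Anthocyanins are made from phenylalanine, which phenylalanine ammonia-lyase (PAL) feeds into the phenylpropanoid pathway. The early flavonoid enzymes then build flavonols and dihydroflavonols, and the late enzymes DFR and ANS turn dihydroflavonols into anthocyanidins, which are glycosylated and carried to the vacuole with the help of the glutathione S-transferase TT19. In Arabidopsis the late steps are switched on by a complex of MYB, bHLH and WD40 proteins. Petals lose most of their chlorophyll as they open, and the yellow of *B. napus* petals comes from carotenoids.

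The *B. napus* libraries held 15507389 (M4) and 16447021 (H3) counted reads and those of *O. violaceus* 1850787 (OvP) and 2040729 (OvW), so the *O. violaceus* pair carries the wider intervals. The petal identity genes *AP3* and *PI* were abundant in every library, with summed levels of at least 1455 and 3206 RPKM (reads per kilobase of gene, scaled to library size). The anther and pollen list summed to 17.9, 21.9, 55.3 and 49.4 RPKM in M4, H3, OvP and OvW, and the carpel and ovule list to 9.65, 20.4, 15.6 and 16.6 RPKM. Within the carpel list *SHP2* had 77 reads in M4 against 222 in H3 and 0 in both *O. violaceus* libraries, while *AG* had 14 against 3 and 4 against 3. The photosynthesis list, a measure of green tissue, summed to 2959 RPKM in M4 against 6521 in H3, and to 2633 in OvP against 9259 in OvW. It was lower in the pigmented petals of both species, and its part in the other differences was not tested.

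In all, 185 genes (1.36% of those tested) were higher in both pigmented petals and 158 (1.17%) were lower in both. A further 80 genes (0.59%) were higher in M4 than in H3 and lower in OvP than in OvW, and 80 (0.59%) had the reverse pattern. Taken alone, the M4 pair had 1644 genes at 3-fold or more (12.1%) and 1069 at 1/3 or less (7.89%). The OvP pair had 752 (5.55%) and 813 (6.0%). The genes higher in both made up 11.3% of the M4 list and 24.6% of the OvP list, and the genes lower in both 14.8% and 19.4%. The genes higher in M4 and lower in OvP made up 4.87% of the genes higher in M4 and 9.84% of those lower in OvP. The reverse group made up 7.48% of the genes lower in M4 and 10.6% of those higher in OvP. Over all 13554 genes the log2 folds of the pairs had a Pearson correlation of 0.16 and a Spearman correlation of 0.18 across genes, which are not independent replicates. Most genes were within 3-fold in both pairs (9779), while 2210 passed only in the M4 pair and 1062 only in the OvP pair.

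**Figure D1:**
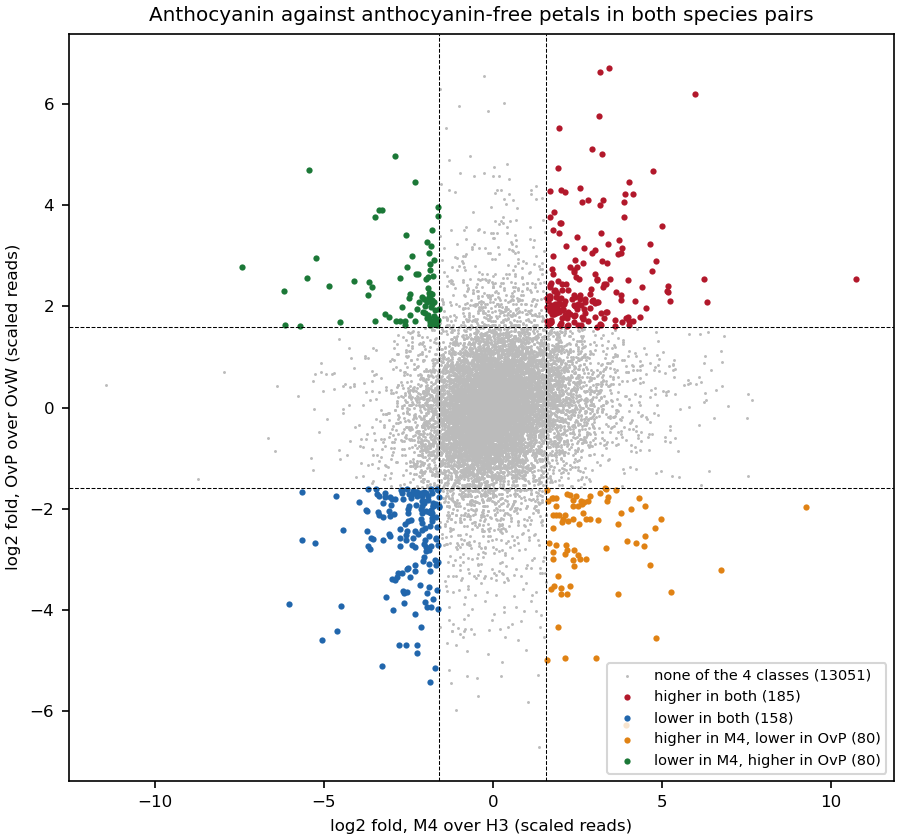
Log2 fold of each of the 13554 genes in the M4 pair (horizontal axis) and the OvP pair (vertical axis), from TMM-scaled reads. Dashed lines mark 3-fold, coloured points are the 4 classes and grey points all other genes. Points of the same direction number 185 and 158, and each corner of opposite direction holds 80.

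With the pairs as blocks, the quasi-likelihood test of edgeR called 0 genes higher and 0 lower in pigmented petals at an adjusted p of 0.05. The smallest adjusted p was 0.641. At an unadjusted p under 0.05 the test had 992 genes (7.32%), and this fit had 1 residual degree of freedom. DESeq2 with the same block called 59 genes higher and 71 lower, 130 in all (0.959%). Of these, 47 were in the class higher in both, 64 in the class lower in both and 19 in neither. The classes are therefore descriptions of 4 libraries, and membership rests on fold size and not on a test that holds across edgeR and DESeq2. The interval of every member lay on 1 side of no difference in both pairs, which the minimum of reads and the fold rule already ensure, so it adds no support. The whole interval lay past 3-fold in both pairs for 49 genes higher in both, 56 lower in both, and 22 and 18 of the opposite classes. Scaling by total reads in place of TMM raised every log2 fold by 0.38 in the M4 pair and by 0.09 in the OvP pair. The classes then held 265 genes higher in both and 105 lower in both, and the share of higher genes among these moved from 53.9% to 71.6%.

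Among the genes higher in both pigmented petals, the leading ones were the 2 copies of *ANS*, anthocyanidin synthase, which the table calls *TT18*. *ANS* Bra013652 on chromosome A01 had 234 reads in M4 against 0 in H3, and 140 in OvP against 2 in OvW. Against the floor it was 63.4-fold higher in M4, with a lower interval end of 51.1. In OvP it was 72.7-fold higher (interval 19.8 to 607). *ANS* Bra019350 on A03 had 40 reads in M4 against 0 in H3 and 101 in OvP against 1 in OvW. Its fold was 10.8 against the floor in M4, with a lower interval end of 8.41, and 105 in OvP (18.4 to 4186). Both copies were thus near or at 0 in both unpigmented petals. DESeq2 gave the 2 copies adjusted p of 4.252e-05 and 0.001477, whereas edgeR called neither.

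2 more anthocyanin genes were members. *F3′H* (*TT7* in the table, Bra009312, A10), the hydroxylase that opens the route to cyanidin, had 764 reads in M4 against 82 in H3 and 39 in OvP against 8 in OvW. Its fold was 7.57 (6.02 to 9.63) in M4 and 5.07 (2.33 to 12.5) in OvP. *TT19* Bra008570 on A10 had 19 reads in M4 against 1 in H3, and 148 in OvP against 45 in OvW. Its fold was 15.4 in M4 with an interval of 2.45 to 642, and 3.42 (2.43 to 4.88) in OvP, so unlike *ANS* it kept a clear level in white petals. A second *TT19* copy, Bra023602, had 59 reads in M4 against 0 in H3 but only 4 and 2 in *O. violaceus*, too few for a class.

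*DFR* Bra027457 missed the class by the size of its fold in *O. violaceus*. It had 428 reads in M4 against 5 in H3, a fold of 69.6 (29.6 to 215), and 90 in OvP against 34 in OvW, a fold of 2.75 (1.83 to 4.21). *F3H* Bra036828, flavanone 3-hydroxylase, was in the same position with folds of 6.03 (5.50 to 6.63) and 2.103 (1.61 to 2.76). The bHLH gene *GL3* Bra025508 missed it on the other side. It had 54 reads in OvP and 0 in OvW, 18.7-fold higher against the floor, with a lower interval end of 14.7. In M4 it had 46 reads and in H3 17, a fold of 2.199 (1.24 to 4.09). The MYB gene Bra001917 of the *PAP1* group had 92 reads in M4 against 3 in H3, a fold of 24.9 (8.27 to 123), and 47 and 42 reads in OvP and OvW, a fold of 1.16 (0.751 to 1.81). Other tested genes of that group differed from it. Bra004162 had folds of 2.90 (2.41 to 3.50) and 0.932 (0.766 to 1.13). Bra039763 was lower in M4, with 25 reads against 57 in H3, a fold of 0.356 (0.213 to 0.580), and had a fold of 1.42 (0.608 to 3.41) in OvP. *EGL3* Bra027653, another bHLH gene, had 25 reads in M4 and 1 in H3, and 701 and 699 in OvP and OvW. A second copy, *EGL3* Bra027796, had folds of 0.892 (0.640 to 1.24) in M4 and 0.694 (0.555 to 0.866) in OvP. Of the 15 tested genes on the anthocyanin regulator list, 0 were 3-fold higher in both pairs. Over all tested genes 1.36% were, so 0 of 15 does not set this list apart.

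The primer pairs that the study used in qRT-PCR for genes of these names are shown because they define the transcripts it followed, 5′ to 3′ and with no base capitalised. Which gene copy a pair amplifies was not tested.
*ANS* forward: ttacattgaagcaacgagtgag
*ANS* reverse: gcatcacaatcgaatcaggaac
*F3′H* forward: ccacacatcgcatcagagag
*F3′H* reverse: ctccgaacggtataagctcg
*TT19* forward: aatactccaaccaaggcacg
*TT19* reverse: acattcttcgcctaacctgg

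Of the 9 tested genes on the list of late anthocyanin enzymes and transport, 3 were higher in both and 0 lower in both, with median log2 folds of 3.95 in the M4 pair and 1.17 in the OvP pair. The list was mixed, with 5 genes above 1 in both pairs and 1 below 1 in both. All 17 genes of the list, tested or not, summed to 154 RPKM in M4 against 129 in H3, but to 742 in OvP against 925 in OvW. Medians over all genes tested were 0.00 and -0.01. Of 11 early flavonoid enzymes 1 was higher in both, with medians of 0.63 and 1.06, and 7 were above 1 in both pairs (63.6% against 28.3% of all genes). The acyltransferase gene *AT5MAT* (Bra036208) on the late list differed in direction between pairs, with 312 and 9 reads in M4 and H3 and 727 and 1861 in OvP and OvW. Of the 72 genes of the study's list of anthocyanin genes found in the table, 36 had enough reads. Of these 4 were higher in both, 2 lower in both and 0 in the opposite classes. Over all tested genes the shares were 1.36%, 1.17% and 0.59% for each opposite class. The study took that list from earlier work on *B. rapa* and looked it up in these samples.

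The 2 genes of that list that were lower in both pigmented petals encode PAL, the entry enzyme. *PAL1* Bra005221 on A05 had 10121 reads in M4 against 29538 in H3, and 550 in OvP against 2899 in OvW, which gave folds of 0.278 (0.272 to 0.285) and 0.197 (0.180 to 0.216). *PAL4* Bra029831, also on A05, had 2597 and 12626 reads in the M4 pair and 15 and 89 in the OvP pair, folds of 0.167 (0.160 to 0.174) and 0.175 (0.0941 to 0.305). Reads of both genes were fewer in each pigmented petal than in its partner. *PAL1* Bra005221 left the class with total reads and with the deposited RPKM, where its log2 fold in the M4 pair was -1.46 and -1.47 against a limit of -1.58 for 3-fold. The other tested *PAL* genes were in no class. *PAL1* Bra017210 had folds of 0.563 in M4 and 0.324 in OvP. The *PAL2* copies Bra003126, Bra039777 and Bra006985 had folds of 0.802, 0.267 and 1.46 in M4, and of 0.325, 0.364 and 0.251 in OvP. Over 29 tested genes of phenylpropanoid and monolignol synthesis, 2 were lower in both (1 with total reads) and the median log2 folds were -0.16 and -1.01. The first of these turned to 0.23 with total reads. In *O. violaceus* 2 copies of *CCoAOMT1*, a methyltransferase of lignin synthesis, had 531 and 98 reads in OvP against 5479 and 2138 in OvW. The same copies had 212 and 306 reads in M4 against 233 and 269 in H3.

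**Figure D2:**
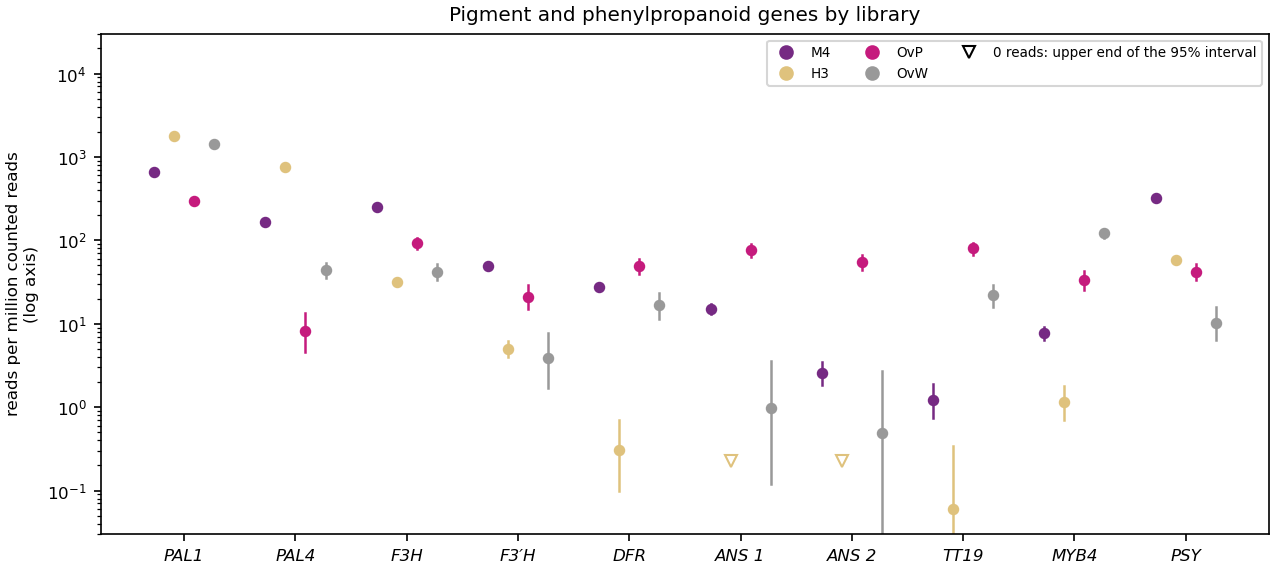
CPM, the reads scaled to a common library total (log axis), in each library for 10 genes, namely 9 of the phenylpropanoid, anthocyanin and carotenoid routes and the repressor gene *MYB4*. Points are single libraries with 95% Clopper-Pearson intervals, and open triangles mark the upper end of the interval where a library had 0 reads. *ANS* copies 1 (Bra013652) and 2 (Bra019350) were at 0, 2 or 1 reads in H3 and OvW, while the 2 *PAL* genes shown (*PAL1* Bra005221 and *PAL4* Bra029831) were lower in the pigmented library of each pair.

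Outside the anthocyanin route, the gene leading the class higher in both was *LOX1* Bra021322, a lipoxygenase that oxidises fatty acids, with 3115 reads in M4 against 289 in H3, and 261 in OvP against 5 in OvW. Its folds were 8.76 (7.76 to 9.92) and 54.2 (22.9 to 168). *PIP2D* Bra003196, an aquaporin gene, had 183 and 10 reads in the M4 pair and 64 and 4 in the OvP pair, folds of 14.9 and 16.6. *VTC5* Bra035554, of ascorbate synthesis, had folds of 13.2 and 8.14, and the transcription factor gene *GATA8* Bra007099 of 9.37 and 7.46. *CYP81D11* Bra039047, a cytochrome P450 gene, had 4260 reads in M4 against 2 in H3, a fold of 1731 with an interval of 479 to 14298. In OvP it had 106 reads against 19 in OvW, a fold of 5.80 (3.54 to 10.01). *P5CS1* Bra005012, the proline synthesis gene, had the most reads in M4 of the genes named in this class, with 17052 reads against 849 in H3 and 2144 in OvP against 715 in OvW.

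Starch genes stood among the leading members, and a list of starch metabolism was drawn up after this was seen. Of 33 tested genes 4 were higher in both, 0 lower in both and 2 higher in M4 but lower in OvP, where 1.36%, 1.17% and 0.59% of all tested genes fell in these classes. *APL4* Bra030291, a subunit of the ADP-glucose pyrophosphorylase that makes the starch precursor, had 166 reads in M4 against 9 in H3, and 162 in OvP against 9 in OvW. Its folds were 14.99 (7.71 to 33.4) and 18.7 (9.61 to 41.6). The beta-amylase gene *RAM1* (Bra038088) had folds of 26.1 and 6.52, the glucan phosphorylase gene *PHS1* (Bra025392) of 3.89 and 10.9, and the debranching enzyme gene *ISA1* (Bra005001) of 5.598 and 3.86. The 4 genes thus include enzymes of both synthesis and breakdown. The list as a whole differed between pairs, with median log2 folds of 1.54 in M4 and 0.24 in OvP. The debranching enzyme gene *PU1* (Bra009461) had 429 and 71 reads in M4 and H3 but 9 and 31 in OvP and OvW.

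Of 8 tested heat shock genes 3 were higher in both and 7 were above 1 in both pairs (87.5%, against 28.3% of all genes), with medians of 1.23 and 1.33. Over all genes 1.36% were higher in both. All 3 members were copies matched to *HSP17.6II*, a small heat shock protein that binds unfolded proteins. Copy Bra023360 had 283 reads in M4 against 0 in H3, and 1095 in OvP against 197 in OvW. Its folds were 76.7 against the floor in M4 and 5.78 in OvP. Copies Bra008920 and Bra006137 had folds of 35.8 and 16.2 in M4 and of 4.96 and 3.48 in OvP. The 3 copies may share reads, so they are not 3 independent observations. *HSP101* and *HSP70*, which belong to the same response, stayed within 3-fold in both pairs.

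The carotenoid list had 1 member higher in both. *PSY* Bra008569, phytoene synthase at the head of the carotenoid pathway, had 4971 reads in M4 against 966 in H3, and 78 in OvP against 21 in OvW. Its folds were 4.18 (3.90 to 4.48) and 3.86 (2.36 to 6.58). The 19 tested carotenoid genes had medians of -0.42 and -0.23 (-0.03 and -0.15 with total reads). Of these 7 were above 1 in the M4 pair, 9 in the OvP pair and 8 below 1 in both. In the jasmonate list *AOC3* Bra017350, an enzyme of jasmonate synthesis, was higher in both with folds of 12.4 and 3.04, though with DESeq2 size factors its log2 fold in the OvP pair was 1.55, short of 3-fold. The 23 tested genes of that list had medians of 1.41 in M4 and -0.28 in OvP.

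Of 72 tested genes picked by a search of the table for ribosomal protein names, 3 were higher in both (*RPS6A*, *RPSAA* and *RPS19*), 6 with total reads. None was lower in both, and 1 was higher in M4 and lower in OvP. Over all tested genes 1.36% were higher in both and 0.59% higher in M4 and lower in OvP. The search can miss ribosomal protein genes, so these are counts of the list and not of the whole family. It did not pick members higher in both that carry no symbol, such as the copies matched to AT1G27400, AT2G47610 and AT4G15000. Of the 72 genes, 46 were above 1 in both pairs (63.9% against 28.3% of all genes), and the medians were 1.46 and 0.47. *RPS6A* Bra010227 had 3810 and 952 reads in the M4 pair and 200 and 39 in the OvP pair, folds of 3.25 and 5.33.

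**Figure D3:**
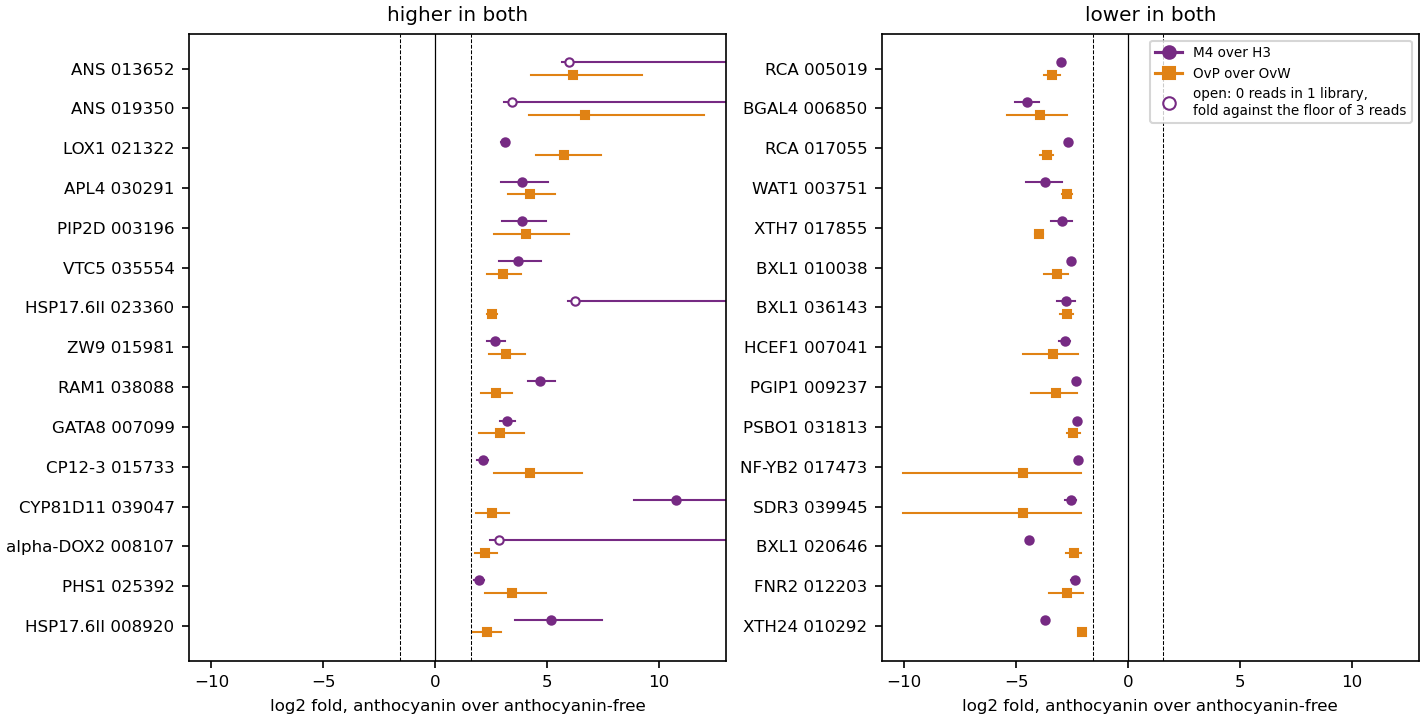
Log2 folds in the M4 pair (circles) and OvP pair (squares) of the 15 named genes that lead each class of the same direction, with 95% Clopper-Pearson intervals of the reads. Digits after a symbol are those of the *B. rapa* gene, dashed lines mark 3-fold and open symbols a fold against a floor of 3 reads. Both *ANS* copies and *LOX1* lie at 54.2-fold or more in OvP, and 2 *RCA* and 3 *BXL1* copies are among the 15 genes lower in both.

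The class lower in both pigmented petals held 10 genes of the photosynthesis list, and copies of *RCA* and *BGAL4* led it by rank. *RCA*, Rubisco activase, which keeps the carbon-fixing enzyme active, had all 3 tested copies in the class. *RCA* Bra005019 had 490 reads in M4 against 3172 in H3, and 70 in OvP against 759 in OvW, folds of 0.126 (0.114 to 0.138) and 0.0958 (0.0739 to 0.123). *RCA* Bra017055 had folds of 0.158 and 0.0808, and *RCA* Bra000144 of 0.163 and 0.203. *PSBO1* Bra031813, of the oxygen-evolving complex, had 801 and 3198 reads in the M4 pair and 119 and 672 in the OvP pair, folds of 0.203 and 0.184. *LHCA4* Bra018144, an antenna protein of photosystem I, had folds of 0.255 and 0.242.

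Of 52 tested genes on the photosynthesis list, 10 were lower in both and 0 higher in both. The folds of 49 were below 1 in both pairs (94.2% against 28.6% of all genes), and all 52 were below 1 in the OvP pair. Medians were -1.10 in the M4 pair and -2.11 in the OvP pair, and with total reads -0.71 and -2.03. The 3 genes above 1 in M4 were a copy each of *LHCB4.1*, *LHCB6* and *PSBP1* (*PSII-P* in the table), the last with 164 reads in M4 against 106 in H3 but 4 in OvP against 45 in OvW. The antenna gene *LHCB2.4* (Bra033022), which is not on the list, had 798 reads in M4 against 107 in H3, 6.06-fold higher, and 200 in OvP against 618 in OvW. The level of this list is the same measure of green tissue as given above, so the members follow it by construction.

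Lists for the rest of the photosynthetic machinery were drawn up after the class had been seen. For the Calvin cycle and photorespiration 12 of 44 tested genes were lower in both (7 with total reads), 0 were higher in both, 1 was lower in M4 and higher in OvP, and the medians were -1.42 and -1.16. Over all genes 1.17% were lower in both. *HCEF1* Bra007041, the plastid fructose bisphosphatase, had 171 reads in M4 against 993 in H3, and 7 in OvP against 74 in OvW. Both copies of *HCEF1*, *SBPASE* and *GAPA-2*, all enzymes of the Calvin cycle, were members. So were both copies of the photorespiratory serine hydroxymethyltransferase, which the table calls *STM*. For electron transport 6 of 14 tested genes were lower in both (4 with total reads), all 14 were below 1 in both pairs, and the medians were -1.61 and -1.84. *FNR2* Bra012203, ferredoxin-NADP reductase, had folds of 0.191 and 0.152. The Mg-chelatase subunit gene *GUN5* (Bra006208), needed to make chlorophyll, had folds of 0.273 and 0.240.

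Of genes that act on the cell wall, *BXL1*, a beta-xylosidase that trims wall polysaccharides, had all 3 tested copies in the class, and copy Bra010038 had 3842 reads in M4 against 18016 in H3, and 33 in OvP against 311 in OvW. *BGAL4* Bra006850, a beta-galactosidase gene, had 34 and 623 reads in the M4 pair and 6 and 94 in the OvP pair, folds of 0.0444 and 0.0663. *PGIP1*, which inhibits pectin-degrading enzymes of pathogens, had both copies in the class, with folds of 0.201 and 0.259 in M4 and of 0.107 and 0.0649 in OvP.

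Xyloglucan endotransglucosylases (XTH) cut and rejoin the xyloglucan chains that tether cellulose. Of 16 tested genes with that name, 5 were lower in both (3 with total reads) and 1 higher in both, against 1.17% and 1.36% of all genes. *XTH24* Bra010292 had 1328 reads in M4 against 14120 in H3, and 2384 in OvP against 10223 in OvW, folds of 0.0764 and 0.242. *XTH7* Bra017855 had 47 and 298 reads in the M4 pair and 272 and 4501 in the OvP pair, folds of 0.128 and 0.0628. *XTH8* Bra019846 went the other way, with 864 and 203 reads in the M4 pair and 4798 and 628 in the OvP pair, folds of 3.46 and 7.94. In levels per length *XTH8* reached 2823 RPKM in OvP against 337 in OvW, and *XTH7* 164 against 2467. The list had medians of -1.66 and -0.91, and it was drawn up after its members had been seen.

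**Figure D4:**
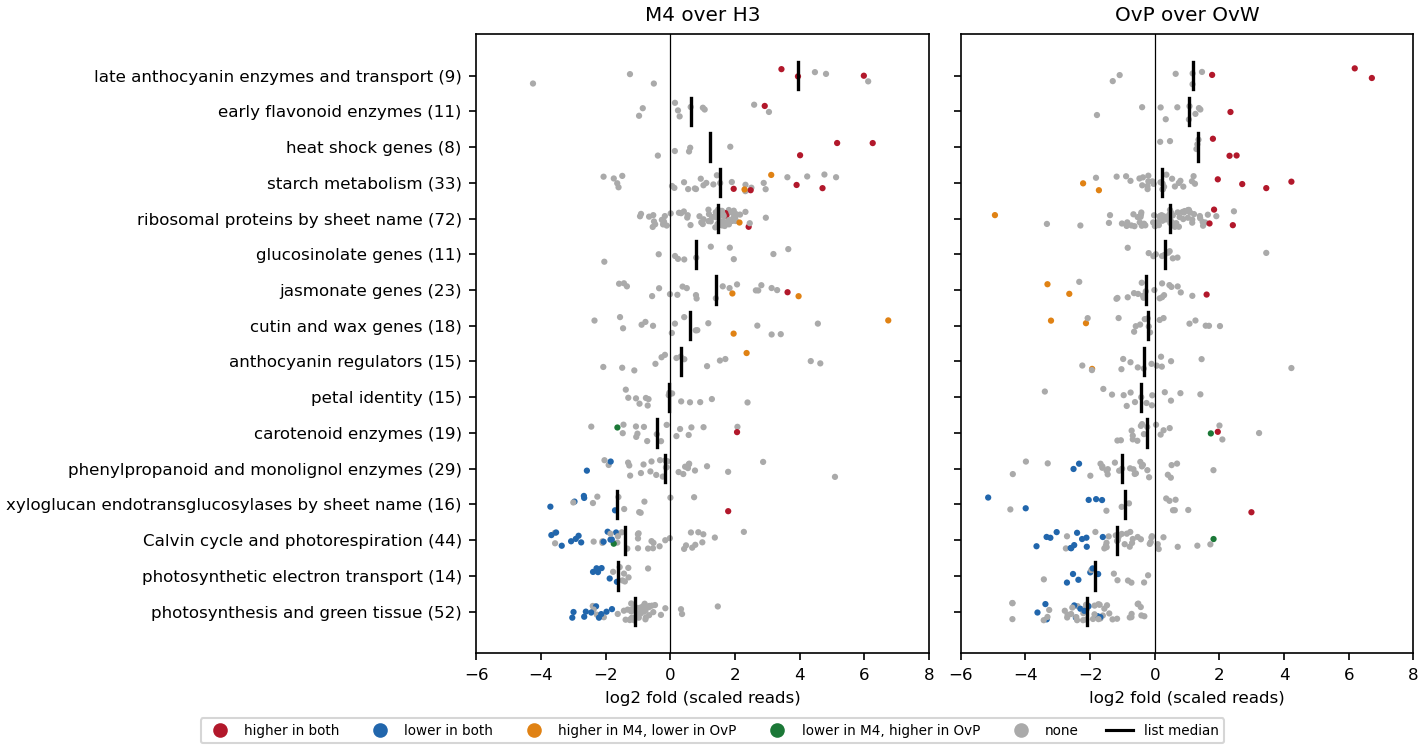
Log2 folds of every tested gene of 16 gene lists in the M4 pair (left) and OvP pair (right), with the number of genes in brackets, the class by colour and the list median as a black bar. All 52 photosynthesis genes lie left of 0 in the OvP pair, whereas the jasmonate list lies at a median of 1.41 in M4 and -0.28 in OvP.

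Several symbols in the table are easily misread. The *PAP1* among the genes lower in both (Bra017464) matched a phosphatidic acid phosphatase gene and not the MYB gene of that name, and the *CHI* there (Bra000310) matched a chitinase gene and not chalcone isomerase. All 185 genes higher in both and all 158 lower in both had an Arabidopsis match, and 82 and 103 had a symbol. Of the Arabidopsis genes matched, 10 had more than 1 copy in the class higher in both and 13 in the class lower in both. When reads were summed over copies with the same match, 98 Arabidopsis genes were higher in both and 98 lower in both of 10308 tested.

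The members of each class were shorter than the genes tested. Median gene length was 1641 bases for genes higher in both, 1687 for genes lower in both, and 1674 and 1662 for the opposite classes, against 2141 for all 13554 genes. The genes higher in both took 0.905% of the reads in M4 against 0.123% in H3, and 1.51% in OvP against 0.276% in OvW. The genes lower in both took 0.423% in M4 against 1.74% in H3, and 0.562% in OvP against 2.465% in OvW. The members lay on all 10 *B. rapa* chromosomes and a few unplaced scaffolds, with the highest share of genes higher in both on A03 (32 genes, 17.3%, against 14.4% of genes tested). Positions refer to *B. rapa* and do not show where a gene lies in *O. violaceus*.

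The 160 genes of opposite direction included enzymes of the cuticle, jasmonate genes and scent enzymes. In the group higher in M4 and lower in OvP, *GPAT6* Bra017137, an acyltransferase of cutin synthesis, had 790 reads in M4 against 6 in H3, but 100 in OvP against 962 in OvW. Its folds were 107 (48.9 to 292) and 0.108 (0.0870 to 0.133). *FSD1* Bra013863, an iron superoxide dismutase gene, had 105 and 3 reads in the M4 pair and 11 and 268 in the OvP pair, folds of 28.4 (9.47 to 140) and 0.0427 (0.0210 to 0.0776). *CER4* Bra011470 (*G7* in the table), an acyl-CoA reductase gene of wax synthesis, had 870 and 182 reads in the M4 pair and 22 and 100 in the OvP pair. Of 18 tested cutin and wax genes these 2 were in this class and 0 in the other 3, while 0.59% of all tested genes were in this class.

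Both tested copies of the jasmonate repressor gene *JAZ5* (*TIFY11A* in the table) were in the same class. Copy Bra030986 had 354 reads in M4 against 76 in H3, but 8 in OvP against 83 in OvW, folds of 3.79 (2.95 to 4.92) and 0.100 (0.0419 to 0.207). Both copies of *BGLU18*, a beta-glucosidase that releases abscisic acid from its glucose ester in Arabidopsis, were members too. *BGLU18* Bra030386 had 5395 and 431 reads in the M4 pair and 24 and 170 in the OvP pair. The anthocyanin regulator list had its 1 member here. *MYB4* Bra033572, a repressor of phenylpropanoid genes in Arabidopsis, had 120 reads in M4 against 19 in H3, but 62 in OvP against 247 in OvW, folds of 5.13 (3.15 to 8.82) and 0.261 (0.194 to 0.346). *WRKY40* Bra035148 was the only member from the defence list, of which 2 genes were tested.

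In the group lower in M4 and higher in OvP, *SAMDC* Bra021458, of polyamine synthesis, had 1451 reads in M4 against 12147 in H3, but 1278 in OvP against 89 in OvW. Its folds were 0.0971 (0.0919 to 0.103) and 14.9 (12.0 to 18.7). Of 3 tested copies of *AtAAS*, an aldehyde synthase that draws on phenylalanine, 2 were members. *AtAAS* Bra031116 had 911 and 17144 reads in the M4 pair and 1059 and 340 in the OvP pair, and *AtAAS* Bra036684 had 14 and 431 reads and 1248 and 168. Of 3 copies of *JMT*, which makes the volatile methyl jasmonate, 2 were members, and *JMT* Bra025753 had 353 and 3191 reads in the M4 pair and 65 and 5 in the OvP pair. *SGR* Bra028385, a chlorophyll breakdown gene, rested on few reads, with 1 in M4 against 35 in H3 and 25 in OvP against 1 in OvW.

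*NCED5* Bra032359, of abscisic acid synthesis, had folds of 0.322 and 3.33. It left the class with total reads and with the deposited RPKM, where its log2 fold in the M4 pair was -1.25 in both cases. *CYP707A4* Bra001741, of abscisic acid breakdown, had 4 and 16 reads in the M4 pair and 21 and 1 in the OvP pair. *CYP707A4* was chosen after its values were seen. Copies of 1 Arabidopsis gene could part ways. *ZCE1* Bra026653 was higher in M4 (111 reads against 4) and lower in OvP (90 against 542), whereas *ZCE1* Bra010541 was lower in M4 (16 against 41) and higher in OvP (26 against 8).

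**Figure D5:**
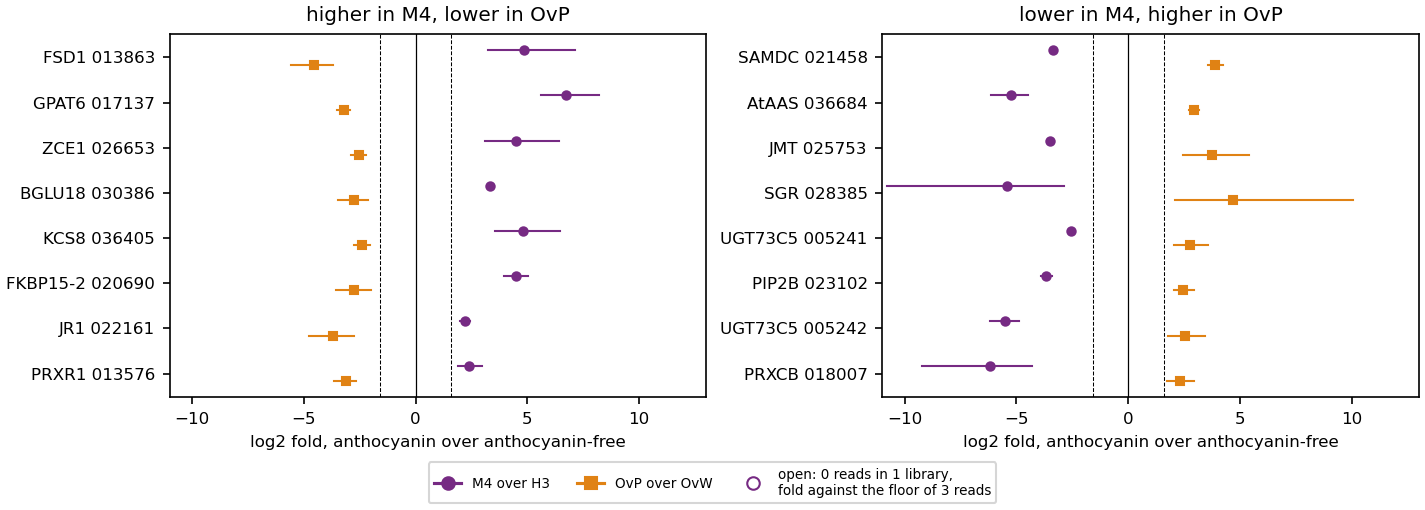
Log2 folds in the M4 pair (circles) and OvP pair (squares) of the 8 named genes that lead each class of opposite direction, with 95% Clopper-Pearson intervals of the reads. Dashed lines mark 3-fold. In every gene both intervals lie past 3-fold on opposite sides.

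Near the 3-fold line membership turned on small differences. Just inside the class higher in both, *CYSB* Bra034755 had a fold of 3.00 in OvP, and just outside it Bra004172 had 2.995. Just inside the class lower in both, Bra024379 had a fold of 0.333 in M4, 3.007-fold lower, and just outside it the jasmonate gene *JAR1* (Bra000421) was 2.999-fold lower in M4 and 5.05-fold lower in OvP. In the opposite classes *PLP6* Bra005058 was just inside at 3.007-fold lower in OvP, and *LHCB2.4* Bra033022 just outside at 2.97-fold lower in OvP. On the other side Bra001253 was just inside at 3.004-fold lower in M4, and *CXE5* Bra018807 just outside at 2.97-fold higher in OvP.

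The remaining lists held no member of any class. The classes hold only 1.36%, 1.17%, 0.59% and 0.59% of all tested genes, so an empty short list is not set apart by this. These were 11 tested glucosinolate genes (medians 0.80 and 0.30), 6 ethylene and senescence genes (-1.96 and -0.84), 15 petal identity genes (-0.05 and -0.42, the first 0.34 with total reads), 3 anther and pollen genes (-1.05 and -0.66) and 2 guard cell genes (-0.83 and -0.87). Of the carpel and ovule list 0 genes had enough reads. The guard cell list summed to 37.0 RPKM in M4 and 51.3 in H3, and to 29.6 in OvP and 51.6 in OvW.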

How the data were processed

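Petal RNA of the 4 materials was made into directional libraries, 1 per material. The authors filtered the reads and aligned them with TopHat to *B. rapa*, allowing up to 2 mismatches, and the deposited counts are whole reads per *B. rapa* gene. The deposited RPKM values were made by the authors per kilobase of gene and scaled to library size, and the study calls them FPKM. The submitters' notes also name DESeq, Cufflinks and Cuffdiff. The sources used here give no tool version, genome version, counting tool or strand setting, so overlapping, antisense and near-identical genes are uncertain. A gene whose *O. violaceus* copy differs much from *B. rapa* gives few or no reads.

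The M4 reads stand under a code and were matched because the other read columns are named for H3 and for white and purple flowers. Over 14978 genes with 50 or more reads in M4 and H3, the ratio of RPKM over the ratio of reads had a median of 1.05 (2.5 to 97.5 percentile 1.04 to 1.06). The table pairs 35645 genes with an Arabidopsis match, and names and roles rest on that match. The spreadsheet had turned some symbols into dates.

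Folds were computed within each pair after TMM scaling (edgeR 4.0.16, R 4.3.3) with a floor of 3 reads for 0 and a minimum of 20 reads in each pair, and class calls used a fold of 3. A floor of 3 reads equals 0.193, 0.182, 1.62 and 1.47 CPM in M4, H3, OvP and OvW. The blocked fit was edgeR's quasi-likelihood test with species and petal class as terms and Benjamini-Hochberg adjustment over 13554 genes, with DESeq2 1.42.0 as the alternative. The class rule and the fit were also run on simulated data, but how they perform at the spread of the real libraries was not tested. The remaining steps ran in Python 3.11.15 (pandas 2.3.3, numpy 2.4.6, matplotlib 3.10.9, SciPy 1.17.1).

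Named genes are the 15 with a symbol that lead each class of the same direction and the 8 that lead each class of opposite direction, ranked by the smaller of both folds at the interval end nearest to no difference. To these were added members of the study's anthocyanin gene list with *DFR*, *ANS*, *TT19*, *F3H*, *F3′H*, *GL3*, the *PAP1* group and *EGL3*, up to 3 members per class of each of 16 gene lists, and genes next to the 3-fold line. 5 lists (starch, Calvin cycle and photorespiration, electron transport, ribosomal proteins, XTH) and other genes named in the text were added after their values were seen. The members and lists were chosen with earlier results of these data known. Alternatives were other scalings, minimums, folds, a prior count, the deposited RPKM, thinned reads and reads summed over copies. The transgenic plants, qRT-PCR and assembled transcripts of the study were not analysed here.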

Additional observations from a re-analysis of the deposited data

Results flagged for a closer look

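The 2 classes of opposite direction, with 80 genes each, stood out because the pigmented library lay on one side of its partner in *B. napus* and on the other in *O. violaceus*. The difference between pairs was not tested, since each material had 1 library. As the log2 fold in the M4 pair minus that in the OvP pair, the differences of genes higher in M4 and lower in OvP were 9.38 for *FSD1*, 9.95 for *GPAT6*, 7.03 for *ZCE1* (Bra026653), 6.12 for *BGLU18* (Bra030386), 7.20 for *KCS8*, 7.21 for *FKBP15-2*, 5.87 for *JR1* and 5.54 for *PRXR1*. Members of gene lists had differences of 4.30 for *MYB4*, 5.24 and 6.61 for the *JAZ5* copies, 4.76 for *WRKY40* and 4.09 for *CER4*. Near the 3-fold line they were 4.91 for *PLP6* and 6.59 for Bra011709.

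Of the genes lower in M4 and higher in OvP, the differences were -7.26 for *SAMDC*, -8.19 for *AtAAS* (Bra036684), -7.23 for *JMT* (Bra025753), -10.13 for *SGR*, -5.32 and -8.06 for the *UGT73C5* copies, -6.13 for *PIP2B*, -8.49 for *PRXCB* and -3.37 for *NCED5*. Near the line they were -3.54 for Bra001253 and -7.29 for Bra033864.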

How the results depend on the processing

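Class counts are given in the order higher in both, lower in both, higher in M4 and lower in OvP, lower in M4 and higher in OvP, against 185, 158, 80 and 80. Total reads gave 265, 105, 120 and 46, the deposited RPKM 254, 104, 118 and 45, and DESeq2 size factors 181, 173, 87 and 79. A minimum of 1 read in each pair gave 354, 284, 216 and 181, of 10 reads 266, 225, 142 and 121, of 50 reads 90, 97, 42 and 41, and of 100 reads 48, 57, 27 and 24. A 2-fold line gave 585, 493, 308 and 255 and a 4-fold line 90, 73, 41 and 27. A prior count of 2 reads gave 157, 137, 67 and 65. Thinning M4 and H3 to the depth of OvP and OvW gave 133, 110, 46 and 57, and summing reads over copies with the same Arabidopsis match 98, 98, 47 and 37. Asking for intervals on 1 side of no difference gave the same counts as the fold alone, which the minimum of reads and the fold rule already ensure. Chosen after seeing the data, whole intervals past 3-fold gave 49, 56, 22 and 18, and a read in each library 173, 148, 76 and 79. The blocked edgeR test called 0 genes with RLE or no scaling factors, with a minimum of 10 reads and without the species block, with between 104 and 1195 genes at an unadjusted p under 0.05. Without a minimum it called 117 higher and 101 lower of 30588, and DESeq2 called 59 and 71. The cause of these differences was not tested. Among the 75 named genes that were checked, *PAL1*, *NCED5*, *PLP6*, Bra024379, Bra000552 and Bra001253 left their class with total reads and with RPKM, and *AOC3*, *CYSB* and Bra033864 with DESeq2 size factors. Other genes named in the text, such as *P5CS1*, *GUN5* and *ZCE1* Bra010541, were not in this check, and those near the 3-fold line can also leave. The folds of 75 named genes kept their direction under total reads, DESeq2 size factors and, where the RPKM were above 0, the deposited RPKM. No replicate could be left out and no paired analysis by replicate number was possible because each material had 1 library. Depth limits the *O. violaceus* pair most.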
